A study of Mus musculus with 96 samples.

Results

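The acute phase proteins described here were 10 genes, Saa1, Saa2, Saa3, Lcn2, Orm1, Orm2, Hp, Hpx, Fgb and Apcs, out of 25095 gene symbols measured in bulk RNA-Seq of mouse liver cells. Each gene was found by its symbol in the annotation column, and where several transcripts carried 1 symbol the transcript with the highest mean was used. Levels are RPKTM, a read count divided by transcript length and scaled to a fixed library size (10 times RPKM), so that genes of different length can be compared. The 96 libraries came from isolated hepatocytes and isolated liver macrophages of male C57BL/6J mice that had eaten a high-fat, sucrose-rich diet over 4 weeks. For every genotype and cell type there were 3 libraries at each of ZT4, ZT10, ZT16 and ZT22, where ZT counts hours from lights on and the lights went off at ZT12.

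The 4 genotypes were labelled Control, RevDKO, RevScapTKO and ScapKO. Per the study's methods, mice carrying floxed alleles were injected at 8 weeks of age with an adeno-associated virus. The virus expressed CRE, or GFP for Control, from the TBG promoter, so deletion was aimed at adult hepatocytes and the macrophages kept their alleles. RevDKO libraries are labelled as lacking both REV-ERB nuclear receptors, the clock repressors encoded by Nr1d1 and Nr1d2. RevScapTKO libraries are labelled as lacking these and Scap, which escorts the SREBP lipid synthesis factors for activation, and ScapKO libraries as lacking Scap alone. Labels number the replicates without naming animals, so p-values measure the spread between these libraries.

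The acute phase response is the change in plasma proteins made by the liver during infection, injury or inflammation. Interleukin-6 acts through gp130, JAK kinases and STAT3, and interleukin-1 and tumour necrosis factor act through NF-kB, with C/EBP factors at many of the same promoters. Positive acute phase proteins rise in plasma, and negative ones such as albumin and transthyretin fall. In the mouse, serum amyloid A and serum amyloid P (Apcs) are strongly inducible, and fibrinogen and hemopexin are abundant already at rest.

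Values of the targeted genes and of cell type markers bear on every comparison. Nr1d1 averaged 90.7 RPKTM in Control and 138 RPKTM in RevDKO hepatocytes, a log2 difference of 1.55 ± 0.25 (SE; limma adjusted p = 8.87e-05) that went against the label. In RevScapTKO hepatocytes Nr1d1 was 1.79 and Nr1d2 0.95 above Control (limma adjusted p = 2.13e-06 and 0.000318), also against the label, and Nr1d2 in RevDKO differed by 0.62 (limma adjusted p = 0.0626). Those values cover the whole transcript, so they do not separate a deleted from an intact message. The paper itself reports relative mRNA of both REV-ERB genes as strongly reduced in hepatocytes. In all that follows a genotype name stands for the libraries that carry this label. Scap was lower by label: it averaged 536 RPKTM in RevDKO and 209 RPKTM in RevScapTKO hepatocytes. In ScapKO hepatocytes, normalized apart, Scap averaged 382 RPKTM (lowest 205, highest 1006). The summed level of 20 hepatocyte markers exceeded that of 16 macrophage markers in 36 of 36 hepatocyte libraries, by at least 79.1 times, but also in 36 of 36 macrophage libraries of the same 3 genotypes, by a median of 7.80 times. In bulk samples fewer cells of a type and less RNA per cell cannot be told apart. Among the hepatocyte libraries, the summed macrophage markers had medians of 1023, 1264 and 3347 RPKTM in Control, RevDKO and RevScapTKO. Of those markers 16 of 16 were higher in RevScapTKO than in RevDKO. The summed stellate cell markers had medians of 891, 1252 and 2776 RPKTM, and 6 of 8 were higher in RevScapTKO than in RevDKO. In the same comparison 4 of 8 endothelial markers were higher, and of the 20 hepatocyte markers 10 were lower and 1 higher (median log2 difference -0.34). ScapKO hepatocyte libraries are titled as hepatocytes while their cell type field says liver macrophage. The title was followed, and hepatocyte markers exceeded macrophage markers in 12 of 12 of them.

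Several members are close copies, which matters for reading their values. Per the annotation of the deposited tables (mm9), Saa3 (chr7:53967368-53971046), Saa1 (chr7:53995867-53998350) and Saa2 (chr7:54007203-54009684) are neighbours, and Saa1 and Saa2 are transcribed away from each other. Their coding sequences were 95.1% identical, with 18 of 369 bases differing, against 75.3% for Saa1 and Saa3. Orm1 (chr4:63005590-63009197) and Orm2 (chr4:63023483-63026911) flank Orm3 and shared 89.9% of their coding bases. The other members lie alone at chr2:32240157-32243259 (Lcn2), chr8:112099028-112103072 (Hp), chr7:112740125-112748630 (Hpx), chr3:82846168-82853785 (Fgb) and chr1:174824092-174825185 (Apcs). Reads shared by copies may have been split by the counting, so the division between Saa1 and Saa2, and between Orm1 and Orm2, is uncertain.

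Promoter windows of 8 of the 10 members were matched in the RefSeq table (GRCm38.p6, 250 bases before to 50 after the start), and Hp and Orm1 were not matched. Both strands were searched for the STAT motif TTCNNNGAA, the C/EBP motif TTGCNNAA and an NF-kB motif, GGGA and TTCC with 2 bases of any kind between them. The C/EBP letters were found in 7 of the 8 windows, all but Apcs, and in 10.8% of all 32851 promoters. The STAT letters were found in Fgb and Apcs, and in 8.30% of all promoters. The NF-kB letters were found in none of the 8 windows and in 1.467% of all promoters. At so low a share, finding none in 8 windows says little about NF-kB sites in these genes. Shown are the promoters of Saa1 and Saa2, which both fell in RevDKO hepatocytes against Control, of Apcs, which rose in that comparison, and of Lcn2, which rose in RevScapTKO hepatocytes against RevDKO in the fit without marker scores. They are written 5' to 3' on the gene's own strand, and capitals mark the C/EBP letters, or in Apcs the STAT letters.
Saa1 (chr7:46742931-46743230, minus strand): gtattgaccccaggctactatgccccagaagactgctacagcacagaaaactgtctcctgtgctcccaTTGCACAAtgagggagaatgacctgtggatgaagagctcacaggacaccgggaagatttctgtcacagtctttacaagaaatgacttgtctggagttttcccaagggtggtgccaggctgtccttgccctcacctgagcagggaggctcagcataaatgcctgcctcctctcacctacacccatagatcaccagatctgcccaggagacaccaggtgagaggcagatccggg
Saa2 (chr7:46751583-46751882, plus strand): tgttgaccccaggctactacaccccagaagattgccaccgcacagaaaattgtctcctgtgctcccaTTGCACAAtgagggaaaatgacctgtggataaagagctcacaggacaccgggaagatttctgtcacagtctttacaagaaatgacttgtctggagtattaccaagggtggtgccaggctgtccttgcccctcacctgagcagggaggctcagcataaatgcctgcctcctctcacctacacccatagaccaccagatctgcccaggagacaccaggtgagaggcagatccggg
Lcn2 (chr2:32387690-32387989, minus strand): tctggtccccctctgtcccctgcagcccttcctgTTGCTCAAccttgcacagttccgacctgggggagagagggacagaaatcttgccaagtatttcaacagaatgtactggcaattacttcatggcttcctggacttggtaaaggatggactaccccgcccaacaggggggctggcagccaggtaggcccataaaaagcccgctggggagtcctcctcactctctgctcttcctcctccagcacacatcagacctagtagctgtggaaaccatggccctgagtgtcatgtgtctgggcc
Apcs (chr1:172895005-172895304, minus strand): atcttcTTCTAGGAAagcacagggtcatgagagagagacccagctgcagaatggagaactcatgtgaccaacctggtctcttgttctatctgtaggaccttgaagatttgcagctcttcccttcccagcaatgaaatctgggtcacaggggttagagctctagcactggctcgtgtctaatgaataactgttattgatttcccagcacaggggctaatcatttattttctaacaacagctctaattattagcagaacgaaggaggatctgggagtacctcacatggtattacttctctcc
Windows of Saa1 and Saa2 were 95.3% identical and both held the letters TTGCACAA, starting at -182 and -183 from the transcription start. In contrast, Saa1 and Lcn2 windows were 50.6% identical, near the 49.5% of Saa1 and Saa3. A match of letters is a description of the window and not a binding site.

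In Control hepatocytes the members spanned a wide range of levels. Fgb, the beta chain of fibrinogen, had a median of 17625 RPKTM, followed by Hpx, which binds free haem, at 14749 RPKTM, and Hp, which binds free haemoglobin, at 10966 RPKTM. Orm1, which encodes the plasma carrier orosomucoid, had a median of 977 RPKTM and its paralog Orm2 18.2 RPKTM. Saa1, a serum amyloid A carried on high-density lipoprotein, had a median of 214 RPKTM, against 43.2 RPKTM for Saa2 and 12.2 RPKTM for Saa3. Apcs stood at 141 RPKTM and Lcn2, which binds bacterial siderophores, at 29.5 RPKTM. In order of medians, from Fgb, Hpx, Hp, Orm1, Saa1, Apcs, Saa2, Lcn2 and Orm2 to Saa3, neighbours overlapped over their 12 libraries in every case except Hp and Orm1.

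One Control hepatocyte library, ZT22 replicate 1, was apart from the others in these genes. It held the highest of the 36 values of 7 of 10 members, while 2.84% of the 13326 genes tested were highest in it. Orm2 was 648 RPKTM there, 36.2 times the median of the other Control libraries. Lcn2 reached 896 RPKTM, or 31.9 times that median. Saa2 reached 705 RPKTM, or 17.2 times, and Saa1 reached 2566 RPKTM, or 12.5 times. Smaller excesses were found for Hp (4.71 times), Hpx (3.84 times) and Orm1 (3.71 times). Saa3 ranked 2nd of 36 there, Apcs 5th and Fgb 18th. Nfkbia, an NF-kB target that encodes its inhibitor, was highest in this library at 131 RPKTM. Stat3 and Rela ranked 2nd of 36, Cebpd 3rd and Socs3 4th, while Il1r1 and Jak2 ranked 28th and Il1rap 27th. Other signalling genes ranked between these, such as Cebpb (9th), Nfkb2 (10th), Jak1 (15th) and Il6ra (18th). Negative acute phase genes ranked from Mbl2 (1st) and Trf (2nd) to Itih2 (34th), with Alb 14th and Ttr 27th. Il1b ranked 4th, at 11.1 RPKTM against a median of 2.64 RPKTM in the other Control libraries. Il6, Tnf, Osm and Lif were listed at 0, but their medians in the other Control libraries were also 0. The neutrophil marker sum of 52.2 RPKTM and the macrophage marker sum of 3628 RPKTM in Control ZT22 replicate 1 were the highest of the Control hepatocyte libraries. Their part in the levels was not tested. Calls of the members that rest on Control hepatocytes are therefore also given without this library.

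**Figure D1:**
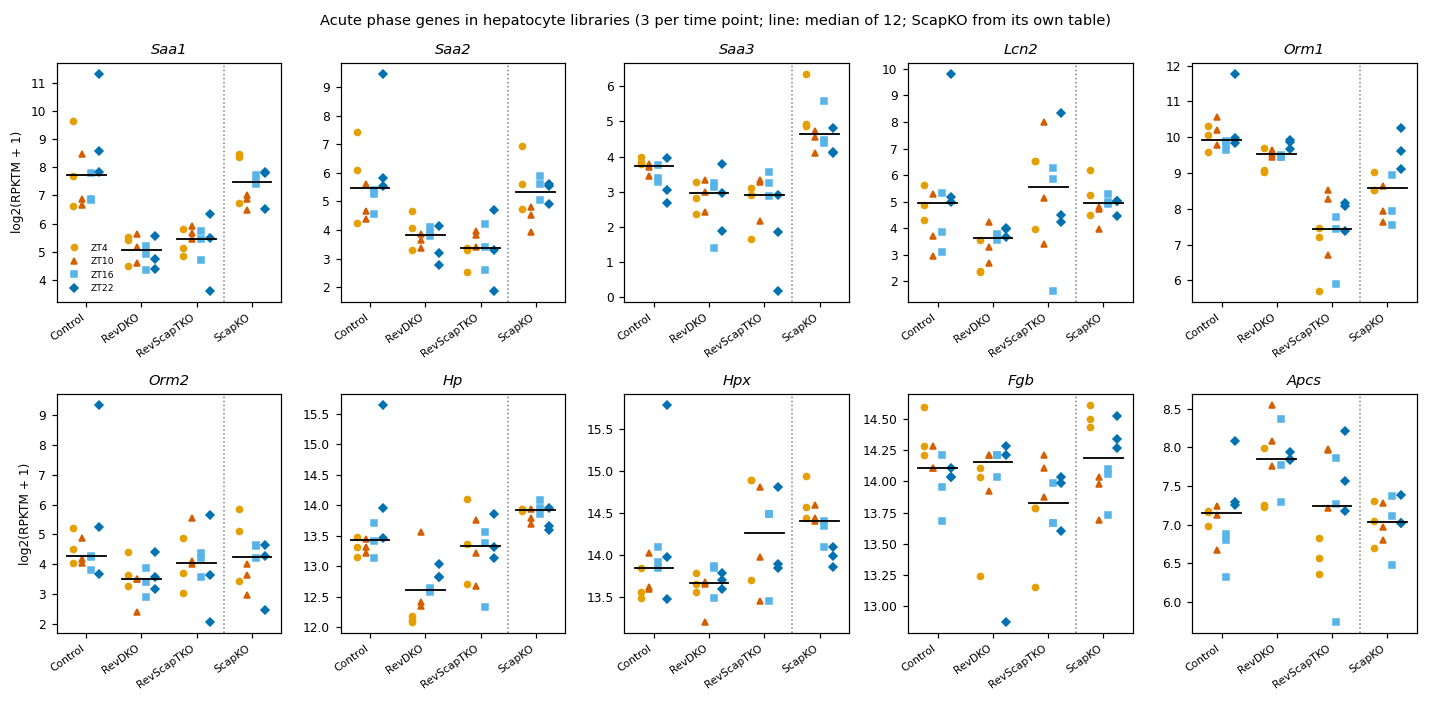
Level of each acute phase gene in hepatocyte libraries, as log2(RPKTM + 1), with 1 point per library coloured by time of day and a line at the median of 12. ScapKO libraries stand right of the dotted line because they come from a table normalized separately. The lone high Control points for Orm2, Lcn2, Saa2 and Saa1 are ZT22 replicate 1, and the Saa1 points of RevDKO and RevScapTKO lie below all Control points.

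The first comparison asked which members differed between RevDKO and Control hepatocytes over the day. Saa1, Saa2 and Hp fell and Apcs rose, so 4 of 10 members passed the test, where 4.43% of 13326 genes did (2.43% lower and 2.0% higher). Their calls use limma on log2(RPKTM + 1), a contrast of the mean over the 4 times, and a Benjamini-Hochberg adjusted p under 0.05 over all genes tested. The median log2 difference of the members was -0.87, beside -0.01 over all genes.

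Serum amyloid A carried the largest differences. Saa1 ranged from 98.8 to 2566 RPKTM in the 12 Control libraries (median 214) and from 19.1 to 48.6 RPKTM in the 12 RevDKO libraries (median 32.0). No RevDKO library reached the lowest Control library, a separation downwards that 0.203% of genes showed. The log2 difference was -2.94 ± 0.34 (SE; limma adjusted p = 4.13e-07), or 7.69-fold lower, and at ZT4, ZT10, ZT16 and ZT22 it was -2.86, -2.21, -2.35 and -4.36. Saa2 ranged from 17.8 to 705 RPKTM in Control (median 43.2) and from 5.83 to 24.1 RPKTM in RevDKO (median 13.1). In 11 of 12 RevDKO libraries Saa2 was below the lowest Control library, and the log2 difference was -1.97 ± 0.37 (limma adjusted p = 0.000666). Saa3, made by macrophages and adipocytes as well as liver, had medians of 12.2 and 6.82 RPKTM and overlapping ranges. Its log2 difference of -0.75 ± 0.28 did not pass the test (limma adjusted p = 0.128). Without Control ZT22 replicate 1, Saa1 differed by -2.68 (limma adjusted p = 3.48e-07) and Saa2 by -1.65 (limma adjusted p = 0.000695).

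Hp was the carrier protein that fell. It ranged from 8942 to 51122 RPKTM in Control (median 10966) and from 4350 to 12080 RPKTM in RevDKO (median 6207), with 11 of 12 RevDKO libraries below the lowest Control library. The log2 difference was -0.996 ± 0.198 (limma adjusted p = 0.00151), and -0.83 without Control ZT22 replicate 1 (limma adjusted p = 0.00225). Hpx, the partner scavenger for haem, had medians of 14749 and 13050 RPKTM and a log2 difference of -0.28 ± 0.20 (limma adjusted p = 0.523). Orm1 had medians of 977 and 737 RPKTM, and its difference of -0.60 ± 0.23 did not pass (limma adjusted p = 0.152), although it did in a fit of the 2 genotypes alone (limma adjusted p = 0.0248). The Orm1 difference was -0.44 without Control ZT22 replicate 1 (limma adjusted p = 0.310). Orm2 had medians of 18.2 and 10.3 RPKTM and differed by -1.29 ± 0.42 (limma adjusted p = 0.0758), and it passed without Control ZT22 replicate 3 (-1.59, limma adjusted p = 0.00842) and with the macrophage marker score in the fit (-1.33, limma adjusted p = 0.0387). Without Control ZT22 replicate 1 it differed by -0.88 (limma adjusted p = 0.138). Lcn2 had medians of 29.5 and 11.3 RPKTM and differed by -1.48 ± 0.58 (limma adjusted p = 0.164), and it passed in the fit of the 2 genotypes alone (limma adjusted p = 0.0351). Leaving out Control ZT22 replicate 1 gave Lcn2 a difference of -1.09 (limma adjusted p = 0.332). Fgb was at medians of 17625 and 18315 RPKTM with a difference of -0.17 ± 0.14 (limma adjusted p = 0.588), whose normal 95% interval ran from -0.44 to 0.10.

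Apcs moved the other way. This pentraxin ranged from 79.0 to 269 RPKTM in Control (median 141) and from 149 to 373 RPKTM in RevDKO (median 229). Its ranges overlapped, with 3 RevDKO libraries above the highest Control library. Apcs was higher by 0.74 ± 0.18 (limma adjusted p = 0.0100), and by 0.81 without Control ZT22 replicate 1 (limma adjusted p = 0.00629). At ZT10 and ZT16 the log2 difference was 1.12 and 1.15, and at ZT4 and ZT22 it was 0.38 and 0.33.

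Other acute phase genes were counted from 4 lists. Of 24 tested other positive acute phase genes, 5 fell and 1 rose in RevDKO, where 4.43% of all genes were called. Fgl1, a secreted fibrinogen-like hepatokine, averaged 1117 RPKTM in Control and 335 RPKTM in RevDKO, a difference of -1.60 ± 0.24 (limma adjusted p = 2.43e-05). Orm3, another orosomucoid copy, fell by 1.37 on the log2 scale. Saa4, a constitutive serum amyloid A, fell by 1.15 and the chemokine gene Cxcl1 fell by 1.17, both named after their values were seen. Itih3, a hyaluronan-binding plasma protein, rose by 0.53. Crp, Fga and Fgg did not pass: Crp averaged 1087 RPKTM in Control and 993 RPKTM in RevDKO. Of 21 tested signalling genes 3 fell and none rose, or 14.3%. These were Cebpb (-0.60), Cebpd (-0.79) and Nfkbia (-0.37), with limma adjusted p of 0.0273, 0.0389 and 0.0481. Of 11 negative acute phase genes, Serpina6, the corticosteroid-binding globulin, fell by 0.69 and Itih2 rose by 0.32, or 18.2% called. Of 9 cytokine genes 3 could be tested, and none was called. Without Control ZT22 replicate 1 the counts were 3 lower and 1 higher for the positive list and 0 of 21 for the signalling list. In that fit Fgl1 (-1.48, limma adjusted p = 7.71e-05) and Saa4 (-1.02) were still called, while Orm3 (-0.99) and Cxcl1 (-0.88) were not, with limma adjusted p of 0.0552 and 0.0694. Cebpb (-0.57), Cebpd (-0.75) and Nfkbia (-0.29) had limma adjusted p of 0.0555, 0.0795 and 0.110 there. No macrophage or stellate cell marker was called between these genotypes.

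The second comparison asked what further loss of Scap changed, RevScapTKO against RevDKO. In hepatocytes Orm1 and Apcs fell and Lcn2, Hp and Hpx rose, so 5 of 10 members passed, where 26.2% of 13326 genes did (12.7% lower and 13.5% higher). The median of the members was 0.11 and that of all genes -0.03.

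Orm1 had the largest difference. It ranged from 521 to 963 RPKTM in RevDKO (median 737) and from 51.4 to 367 RPKTM in RevScapTKO (median 173). All 12 RevScapTKO libraries were below the lowest RevDKO library, a separation downwards seen for 0.69% of genes. The log2 difference was -2.14 ± 0.23 (limma adjusted p = 2.51e-08), or 4.41-fold lower, and it was between -2.47 and -1.70 at each of the 4 times. Its paralog Orm2 did not pass, at medians of 10.3 and 15.5 RPKTM and a difference of 0.56 ± 0.42 (limma adjusted p = 0.334). The ratio of Orm1 to Orm2 within a library had a median of 72.6 in RevDKO (lowest 41.1, highest 161) and of 8.38 in RevScapTKO (lowest 3.34, highest 51.6). Orm3 fell by 1.18 from a mean of 2.86 to 0.763 RPKTM.

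Lcn2 rose. It ranged from 4.16 to 17.7 RPKTM in RevDKO (median 11.3) and from 2.14 to 321 RPKTM in RevScapTKO (median 45.6). In 9 of 12 RevScapTKO libraries it was above the highest RevDKO library, and in 1 it was below the lowest. The log2 difference was 1.93 ± 0.58 (limma adjusted p = 0.0143). RevScapTKO ZT22 replicate 2 had the highest Lcn2 of the genotype and its highest neutrophil marker sum, 42.0 RPKTM. Neutrophil marker sums had medians of 14.4 RPKTM in RevDKO and 18.5 RPKTM in RevScapTKO. Of 3 neutrophil markers that could be tested, Csf3r was higher in RevScapTKO, by 0.95.

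Hp ranged from 5118 to 17625 RPKTM in RevScapTKO (median 10315), above the RevDKO median of 6207 RPKTM, and rose by 0.68 ± 0.20 (limma adjusted p = 0.0122). Hpx ranged from 9475 to 14999 RPKTM in RevDKO (median 13050) and from 11262 to 30499 RPKTM in RevScapTKO (median 19656). It rose by 0.58 ± 0.20 (limma adjusted p = 0.0337), but this call was lost in 8 of the 24 fits that left out 1 library (limma adjusted p from 0.0548 to 0.0802) and with no filter on low values (limma adjusted p = 0.0635). Those libraries were RevDKO ZT10 replicate 2 and ZT16 replicate 3, and RevScapTKO ZT4 replicates 2 and 3, ZT10 replicate 2, ZT16 replicates 2 and 3 and ZT22 replicate 2. Apcs had medians of 229 and 150 RPKTM, with 6 RevScapTKO libraries below the lowest RevDKO library, and fell by 0.60 ± 0.18 on the log2 scale (limma adjusted p = 0.0145). Saa1 and Saa2 did not pass, with log2 differences of 0.35 ± 0.34 (95% interval -0.32 to 1.03) and -0.36 ± 0.37. Fgb differed by -0.14 ± 0.14 and Saa3 by -0.21 ± 0.28.

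Macrophage, stellate cell and endothelial markers were higher and hepatocyte markers lower in this comparison, by the counts given above. The part of the hepatocyte marker difference in the falls of Orm1 and Apcs was not tested. With the macrophage marker score in the fit, Orm1 was the 1 member called (-2.38, limma adjusted p = 4.12e-06). In that fit Lcn2 differed by 0.15 (limma adjusted p = 0.964), Hp by 0.41 (limma adjusted p = 0.619), Hpx by -0.056 (limma adjusted p = 0.962) and Apcs by -0.85 (limma adjusted p = 0.0569). With the stellate cell marker score, added after the data were seen, Orm1 was again the 1 member called (-1.82, limma adjusted p = 0.00051). Because the markers differed by genotype, their part in the other calls and the genotype cannot be told apart.

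Of the other positive acute phase genes, 6 rose and 2 fell of 24 tested in RevScapTKO against RevDKO, or 33.3%, where 26.2% of all genes were called. Among those that rose were Il1rn, which encodes the interleukin-1 receptor antagonist, from a mean of 2.44 to 8.57 RPKTM, and Cd14, a lipopolysaccharide co-receptor that macrophages also express, from 4.32 to 10.8 RPKTM. Serpina3m fell by 0.52. The signalling list was near that background, with 5 of 21 genes called (23.8%): Nfkb2 (0.87), Il6st (0.62), which encodes gp130, and Jak1 (0.44) were higher, and Cebpa (-0.41) and Il1rap (-0.39) were lower. Negative acute phase genes were split, with Ahsg (0.31) and Itih2 (0.29) higher, Apoa1 (-0.45) lower, and 8 of 11 not called, so 27.3% were. Il1a, 1 of 3 cytokine genes tested, was higher by 0.62.

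**Figure D2:**
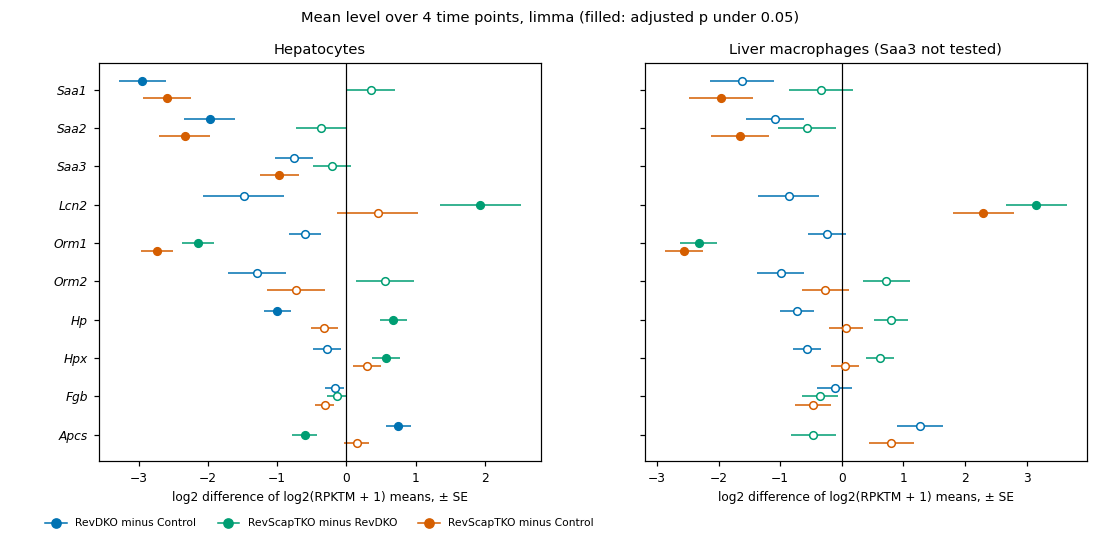
Log2 difference of each acute phase gene in the 3 genotype comparisons, with bars of 1 SE, for hepatocytes and macrophages. Filled symbols passed the test, and Saa3 was not tested in macrophages. Saa1 and Saa2 stand left of 0 in both comparisons with Control, and Orm1 stands left of 0 in both comparisons that involve RevScapTKO in each cell type.

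RevScapTKO against Control shares its libraries with the other comparisons, so its values are given side by side and are not a further test of them. In hepatocytes Saa1, Saa2, Saa3 and Orm1 were lower and no member was higher, where 35.9% of genes were called (18.7% lower and 17.3% higher). Saa1 was at a median of 43.2 RPKTM and below all Control libraries, with a difference of -2.59 ± 0.34 (limma adjusted p = 9.24e-07). Orm1 was likewise below all Control libraries, with a difference of -2.74 ± 0.23 (limma adjusted p = 7.29e-11). These were 2 of 10 members without overlap, against 0.765% of genes separated downwards. Saa2 differed by -2.33 ± 0.37 (limma adjusted p = 1.33e-05) and Saa3 by -0.97 ± 0.28 (limma adjusted p = 0.00694), from medians of 12.2 to 6.51 RPKTM. With the macrophage marker score in the fit Saa3 was no longer called (-0.57, limma adjusted p = 0.458), and with the stellate cell score Saa2 was not called either (-1.99, limma adjusted p = 0.0671). Hp (-0.32), Lcn2 (0.45), Hpx (0.29) and Apcs (0.15), called in 1 or both of the other comparisons, did not pass here. Without Control ZT22 replicate 1, Saa1 differed by -2.33, Saa2 by -2.02 and Orm1 by -2.58, with limma adjusted p of 9.11e-07, 9.74e-06 and 7.72e-11, and Saa3 by -0.87 (limma adjusted p = 0.0173). In that fit Hpx differed by 0.46 and passed (limma adjusted p = 0.0334), and without Control ZT22 replicate 3 Orm2 differed by -1.03 and passed (limma adjusted p = 0.0329). Of 24 tested other positive acute phase genes 5 were higher and 5 lower, or 41.7% called. The counts were 7 higher and 5 lower without Control ZT22 replicate 1. Only lower genes of this list are named here. Fgl1 was 2.22 lower, Orm3 2.55 lower and Saa4 1.06 lower on the log2 scale, and without Control ZT22 replicate 1 they differed by -2.10, -2.17 and -0.93. In this comparison 7 of 20 hepatocyte markers were lower, and 15 of 16 macrophage, 7 of 8 stellate cell and 7 of 8 endothelial markers were higher.

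In the macrophage libraries each member averaged less than in hepatocytes, and hepatocyte markers were detected in all of them. In Control the mean of a member in macrophages was from 6.84% (Saa3) to 25.5% (Hpx) of its hepatocyte mean, and 20 hepatocyte markers had a median of 13.9% (lowest 8.09%, highest 63.8%). In RevScapTKO 5 members stood above the 23.8% of the highest hepatocyte marker: Lcn2 (43.8%), Saa3 (28.6%), Apcs (27.2%), Hp (25.4%) and Orm2 (25.1%). In RevDKO, where the highest marker was at 23.9%, 5 members did too, from Saa2 at 26.3% to Orm2 at 39.2%. Several of these percentages rest on low values. Saa2, Saa3, Lcn2 and Orm2 averaged 3.44, 1.77, 2.94 and 4.38 RPKTM in RevDKO macrophages. In RevScapTKO macrophages Saa3 and Orm2 averaged 1.73 and 4.95 RPKTM. Cell types were normalized in separate tables, so these percentages describe the tables and were not tested. Albumin made up 13.7% to 27.5% of the column sum in 3 of the 36 macrophage libraries (Control ZT16 replicate 1, Control ZT22 replicate 1 and RevScapTKO ZT22 replicate 3) and at most 1.25% in the other libraries.

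In RevDKO macrophages against Control none of 9 tested members passed, where 0.574% of 13947 genes did (0.402% higher and 0.172% lower). The unadjusted limma p was under 0.05 for 6 of the 9. The share of all genes under that unadjusted p was not counted, and the 0.574% is for adjusted p. Saa1 ranged from 0.364 to 110 RPKTM in Control (median 21.0) and from 0.335 to 28.0 RPKTM in RevDKO (median 6.89), a difference of -1.62 ± 0.52 (limma adjusted p = 0.168). Apcs had medians of 14.1 and 53.5 RPKTM and a difference of 1.27 ± 0.37 (limma adjusted p = 0.123). It passed in a fit of the 2 genotypes alone (limma adjusted p = 0.025). Hp, at medians of 2146 and 1457 RPKTM, differed by -0.73 ± 0.28 (limma adjusted p = 0.248). Saa3 was listed at 0 in some libraries of every genotype, had medians of 0.702, 0.491 and 1.91 RPKTM in Control, RevDKO and RevScapTKO, and was too low to test. Fgl1, which fell in RevDKO hepatocytes, was the 1 of 23 other positive acute phase genes called in macrophages (-1.23, limma adjusted p = 0.0419), and it was not called without Control ZT22 replicate 1 of the macrophages (limma adjusted p = 0.0664).

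In RevScapTKO macrophages against RevDKO, Lcn2 rose and Orm1 fell, 2 of 9 tested members where 3.0% of genes were called (1.23% higher and 1.78% lower). The 419 genes behind that share became 1179 without RevDKO ZT16 replicate 3. Lcn2 ranged from being listed at 0 to 7.80 RPKTM in RevDKO (median 1.96) and from 3.61 to 136 RPKTM in RevScapTKO (median 24.5). In 10 of 12 RevScapTKO libraries it was above the highest RevDKO library, and the difference was 3.15 ± 0.50 (limma adjusted p = 8.08e-05). Neutrophil marker sums overlapped, with medians of 61.7 and 64.1 RPKTM, and 0 of 8 tested neutrophil markers were called. Orm1 ranged from 19.4 to 394 RPKTM in RevDKO (median 108) and from 3.35 to 107 RPKTM in RevScapTKO (median 25.8), a difference of -2.32 ± 0.31 (limma adjusted p = 5.41e-06). Of 20 hepatocyte markers 7 were lower and none higher in this comparison, with a median log2 difference of -0.45. With the hepatocyte marker score in the fit 4 members were called, Lcn2 and Orm1 with Hp (1.22, limma adjusted p = 0.0188) and Hpx (0.89, limma adjusted p = 0.0389), and Orm1 differed by -1.56 (limma adjusted p = 0.00323). Il1rn rose from a mean of 11.7 to 28.6 RPKTM, Nfkb2 rose from 29.6 to 53.1 RPKTM, and Fgl1 fell from 66.5 to 31.7 RPKTM. Of the other positive acute phase genes 2 of 23 tested were called (8.70%), and of the signalling genes 1 of 21 (4.76%). Of the negative acute phase genes 0 of 11 were called, and of the cytokine genes 0 of 4.

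Against Control, RevScapTKO macrophages had lower Orm1 (-2.57 ± 0.31, limma adjusted p = 6.36e-07) and higher Lcn2 (2.29 ± 0.50, limma adjusted p = 0.00464). Background in this comparison was 3.76% of genes called (2.38% higher and 1.38% lower), and 4 of 9 members were called. The 524 genes behind that share became 961 without Control ZT22 replicate 3 and 861 without RevScapTKO ZT10 replicate 1. Of 20 hepatocyte markers 4 were lower. At ZT22 Lcn2 differed by 0.05, and at ZT4, ZT10 and ZT16 by 2.53, 3.60 and 2.99. Apcs differed by 0.80 (limma adjusted p = 0.250), and it passed with the hepatocyte marker score in the fit (1.23, limma adjusted p = 0.00782) and without RevScapTKO ZT16 replicate 1 (1.12, limma adjusted p = 0.0311). Saa1 (-1.96 ± 0.52, limma adjusted p = 0.0258) and Saa2 (-1.65 ± 0.47, limma adjusted p = 0.0386) also passed. Without the 3 albumin-rich libraries neither did, at adjusted p of 0.0727 and 0.115 from limma. Leaving out 1 library ended the Saa1 call in 6 of 24 fits (Control ZT4 replicate 3, ZT10 replicate 3 and ZT16 replicate 2, and RevScapTKO ZT4 replicate 2, ZT10 replicate 3 and ZT22 replicate 3), with limma adjusted p up to 0.0569. It ended the Saa2 call in 15 of 24 fits, with limma adjusted p up to 0.0918: Control replicates 1 and 3 of ZT4 and of ZT10 and 2 and 3 of ZT16, and RevScapTKO replicates 1 to 3 of ZT4 and of ZT10, 2 of ZT16, and 1 and 3 of ZT22.

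**Figure D3:**
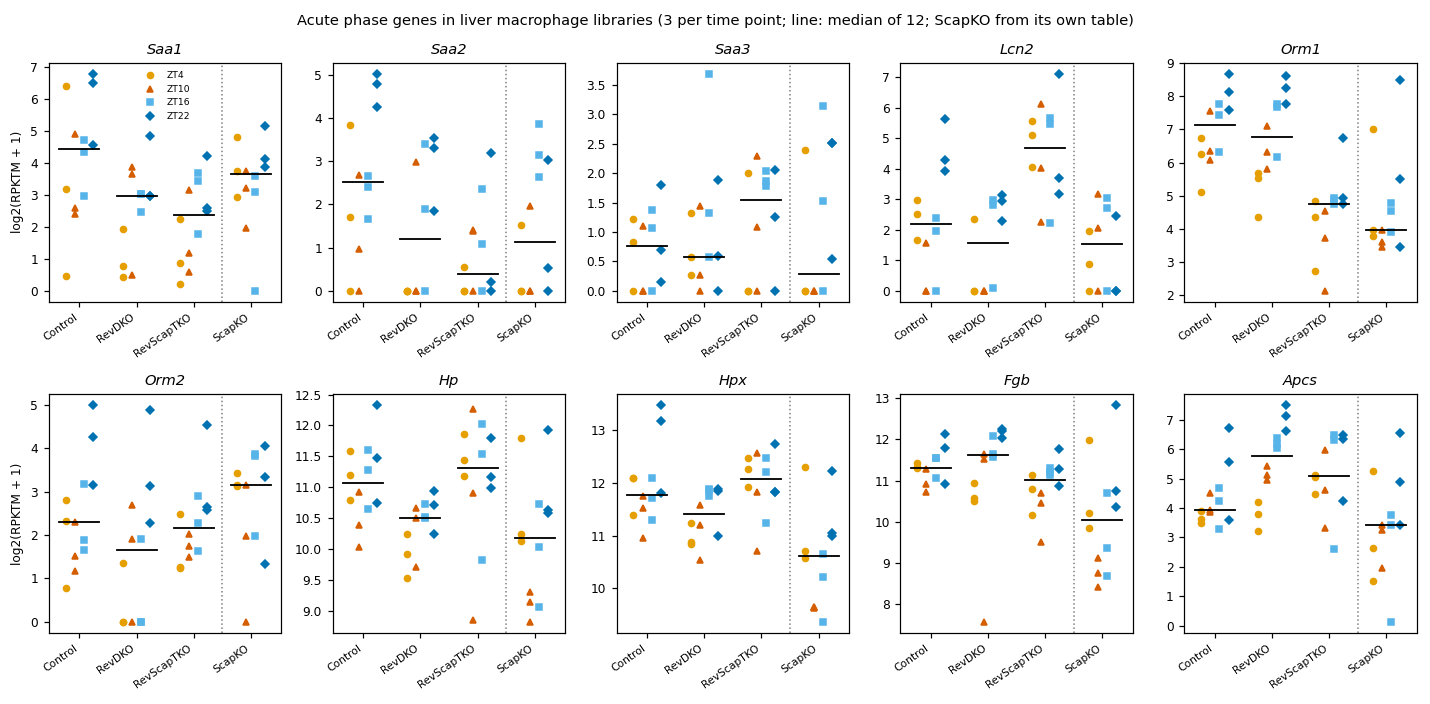
Level of each acute phase gene in macrophage libraries, as log2(RPKTM + 1), drawn as for the hepatocytes, with 1 point per library and a line at the median of 12. In 10 of 12 RevScapTKO libraries Lcn2 stands above the highest RevDKO library, Orm1 has a lower median in RevScapTKO than in Control and RevDKO, and Saa3 has the lowest median of the 10 genes in Control, RevDKO and ScapKO.

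Daily timing was described with the rule of the study. A gene was rhythmic where JTK_CYCLE, run on the 4 time points entered 2 times in a row, gave a p under 0.05 at a 24 h period and the highest time mean exceeded the lowest by over 1.5 times. Entering the series 2 times lowers the p by construction. In hepatocytes 1 of 10 members was rhythmic in Control, where 29.0% of genes were. That member was Apcs, at 192 ± 66.8 RPKTM (SD, n = 3) at ZT22 and 102 ± 20.02 RPKTM at ZT16 (JTK_CYCLE adjusted p = 0.00459). In RevDKO 2 of 10 were rhythmic (Lcn2 and Hp) against 29.7% of genes, and in RevScapTKO 1 of 10 (Saa3) against 20.8%. No member was rhythmic in these 3 groups when the series was entered once, where 10.3%, 8.36% and 2.70% of genes were, or by a 24 h regression, by which 9.41%, 5.63% and 0.0% were. Without ZT22 replicate 1 the Control members rhythmic were Apcs (JTK_CYCLE adjusted p = 0.0185) and Saa3 (JTK_CYCLE adjusted p = 0.00145). The Control count was 4 without ZT10 replicate 3, and the RevDKO count was 0 without any 1 library but ZT10 replicate 2.

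Macrophage libraries gave other counts. In Control 8 of 9 members were rhythmic, where 20.2% of genes were, and in RevDKO 7 of 9, where 28.2% were. In RevScapTKO 4 of 8 were, against 15.4%. The Control count was 4 without ZT10 replicate 1. In Control each of the 10 members had its highest mean at ZT22, as did 10 of 20 hepatocyte markers. In RevDKO 8 of 10 members and 14 of 20 markers did, and in RevScapTKO 7 of 10 and 14 of 20. The share over all genes was not counted, and Saa3, which these counts include, was too low to test. Orm1 rose from 71.7 ± 36.8 RPKTM at ZT4 to 294 ± 110 RPKTM at ZT22 in Control, and from 38.5 ± 16.7 to 306 ± 87.6 RPKTM in RevDKO. Apcs in RevDKO was at 12.9 ± 4.46, 35.3 ± 6.00, 73.6 ± 9.15 and 139 ± 42.0 RPKTM at ZT4, ZT10, ZT16 and ZT22. Apcs and Orm1 in RevDKO also passed the 24 h regression, with limma adjusted p of 0.00168 and 0.0201, where 1.68% of genes did, and no member did in Control or RevScapTKO, where 0.0% and 0.0239% of genes did. Hepatocyte markers behaved alike in part: 7 of 20 were rhythmic in Control macrophages, 11 in RevDKO and 11 in RevScapTKO. Their summed level in Control macrophages averaged 84052 RPKTM at ZT4 and 878203 RPKTM at ZT22, the time that holds the most albumin-rich library. The part of hepatocyte RNA in the members' timing was not tested. With the series entered once, 1, 2 and 1 members were rhythmic in Control, RevDKO and RevScapTKO, against 2.48%, 4.92% and 1.94% of genes.

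**Figure D4:**
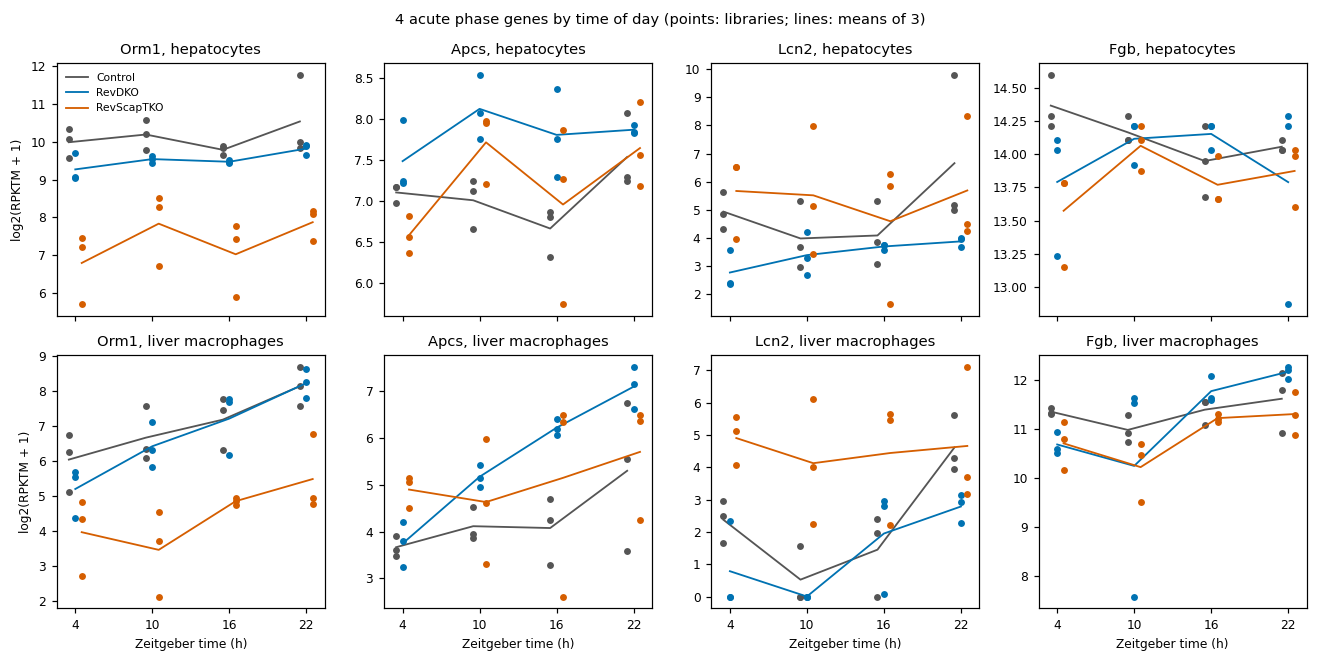
Level of Orm1, Apcs, Lcn2 and Fgb by time of day in hepatocytes and macrophages, as log2(RPKTM + 1), with points for libraries and lines through the means of 3. Apcs in RevDKO macrophages climbs from ZT4 to ZT22, and Orm1 in RevScapTKO hepatocytes stays below Control and RevDKO at all 4 times.

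A change of rhythm between genotypes was tested as a difference in the 24 h cosine and sine terms. No member passed in hepatocytes or macrophages in any of the 3 comparisons. Among hepatocytes 0.203% of genes passed for RevDKO against Control, 0.0% for RevScapTKO against RevDKO and 0.188% for RevScapTKO against Control, and among macrophages 0.0% in each. Saa1 and Saa2 came lowest in unadjusted limma p, at 0.0419 and 0.0431 in hepatocytes of RevScapTKO against Control (adjusted 0.678 for both), and no other member had an unadjusted p under 0.05. Their fitted log2 amplitudes were 2.07 and 2.21 in Control and 0.53 and 0.55 in RevScapTKO. Without Control ZT22 replicate 1 the Control amplitudes were 1.193 and 1.152, and the unadjusted limma p were 0.187 and 0.161 (adjusted 0.831 and 0.829).

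ScapKO libraries were normalized apart, so their levels stand beside the others without a test. In ScapKO hepatocytes Saa1 had a median of 176 RPKTM (lowest 87.7, highest 359), Saa2 39.0, Lcn2 29.9 and Apcs 130 RPKTM. Orm1 had a median of 381 RPKTM (lowest 187, highest 1230), and its ratio to Orm2 a median of 22.2. Saa3 had a median of 24.1 RPKTM (lowest 16.05, highest 80.8). Hp, Hpx and Fgb were the abundant members here too, at medians of 15491, 21713 and 18672 RPKTM. Rhythmic by JTK_CYCLE were Orm1, Hpx and Fgb, 3 of 10 against 19.1% of genes, and with the series entered once Hpx and Fgb, against 5.08%. None passed the 24 h regression, where 1.8% of genes did. Orm1 averaged 857 ± 343 RPKTM at ZT22 and 279 ± 102 RPKTM at ZT10. In ScapKO macrophages hepatocyte markers exceeded macrophage markers in 2 of 12 libraries. Orm1 there had a median of 14.5 RPKTM and a highest value of 358 RPKTM, Lcn2 a highest value of 7.93 RPKTM and Apcs a median of 9.84 RPKTM, and 5 of 9 members were rhythmic against 21.4% of genes (1 with the series entered once, against 3.25%).

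Genes outside the 10 whose levels followed them most closely were named by Pearson correlation with the members' mean standardized level over the 36 libraries of a table, as a description in which libraries share genotype and time. In hepatocytes these were Fgl1 (r = 0.80), Orm3 (0.70), Naaa, a lysosomal acid amidase (0.66), S100a8, a calprotectin subunit of neutrophils (0.65), and the carnitine transporter gene Slc22a5 (0.63). Of these S100a8 and Orm3 were low, at means of 2.15 and 5.72 RPKTM over the 36 libraries. Without Control ZT22 replicate 1 the correlations were 0.78, 0.51, 0.53, 0.48 and 0.57. In macrophages they were Cfb, complement factor B (0.85), Serpina3n, a serine protease inhibitor (0.80), the bilirubin and xenobiotic conjugating Ugt1a7c and Ugt1a10 (0.80 each), which share their downstream exons, and C3, the central complement component (0.80). Fgb (0.35) and Apcs (0.29) were the members least correlated with the score of 10 in hepatocytes, a score that includes them.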

How the data were processed

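Per the labels and the study's methods, total RNA of isolated hepatocytes and liver macrophages was depleted of ribosomal RNA, made into stranded libraries, aligned with STAR to mm9 and counted over RefSeq genes with HOMER, with versions not given in the sources used here. The authors deposited RPKTM, which is RPKM times 10, after quantile normalization within each of 4 tables (the 3 genotypes together and ScapKO apart, for each cell type). All libraries of a table then hold the same sorted values, so the depth is unknown, counting intervals cannot be given, and differences are relative within a table. The tables held 42322 transcripts.

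Here RPKTM was taken as log2(RPKTM + 1). A fold change on this scale understates that of low genes. Genes with at least 3 libraries over 5 were kept, and limma 3.58.1 (R 4.3.3, with trend) was fitted with 1 mean per genotype and time, on 13326 genes in hepatocytes and 13947 in macrophages. Called means an adjusted p under 0.05. JTK_CYCLE was rewritten in Python 3.11.15 with 7 patterns and periods of 18 h and 24 h, for genes with at least 2 libraries over 5. Fits and JTK_CYCLE were tested on simulated data. Alternatives were other pseudocounts, filters, transcripts, genotypes, marker covariates, a replicate block, and leaving out libraries.

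Named besides the 10 members and the targeted genes were up to 3 rises and 3 falls per acute phase list and comparison, and the 5 genes most like the members in each cell type. Single neutrophil markers, and the list genes named for Control ZT22 replicate 1, were picked after their values were seen. The members, lists and marker genes were chosen with earlier results of these data known. ScapKO libraries entered no comparison between genotypes because they were normalized apart. The values of 1 gene in the list of other positive acute phase genes are not reported here, although the list's counts include it.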

Additional observations from a re-analysis of the deposited data

How the results depend on the processing

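The counts of members that differed in mean level depended on the marker covariates and, in macrophages, on low values. In hepatocytes, RevScapTKO against RevDKO went from 5 members to 1 with the macrophage marker score and to 1 with the stellate cell score, and RevScapTKO against Control from 4 to 2 with the stellate cell score, which was added after seeing the data. In macrophages, RevDKO against Control went from 0 to 1 with only those genotypes in the fit, RevScapTKO against RevDKO from 2 to 4 with the hepatocyte marker score, and RevScapTKO against Control from 4 to 2 with a pseudocount of 0.1, with no filter on low values, and without the albumin-rich libraries (also added after seeing the data).

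Some differences changed sign in the fits with a marker score, and none of them was called there. Of these only Hpx for RevScapTKO against RevDKO in hepatocytes was called in the main fit (0.58, limma adjusted p = 0.0337). With the macrophage marker score in hepatocytes they were Apcs (-0.12), Hpx (-0.37) and Lcn2 (-1.42) for RevScapTKO against Control, and Hpx (-0.056), Orm2 (-0.26), Saa1 (-0.19) and Saa3 (0.16) for RevScapTKO against RevDKO. With the stellate cell score they were Lcn2 (-0.49) against Control and Saa3 (0.31) against RevDKO. With the hepatocyte marker score in macrophages they were Apcs (0.54), Fgb (0.32) and Saa1 (0.19) for RevScapTKO against RevDKO. The cause was not tested.

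Leaving out 1 library at a time gave, in hepatocytes, 4 to 5 members for each of the 3 comparisons, and in macrophages 0 to 1 for RevDKO against Control, 2 to 3 for RevScapTKO against RevDKO and 2 to 5 for RevScapTKO against Control. Leaving out Control ZT22 replicate 3 gave the 1 member in macrophages (Apcs, 1.45) and took the count over all genes for RevDKO against Control from 80 to 475. Changed rhythms stayed at 0. Rhythmic members ranged in hepatocytes from 1 to 4 (Control), 0 to 2 (RevDKO), 0 to 1 (RevScapTKO) and 2 to 4 (ScapKO), and in macrophages from 4 to 8, 5 to 7, 4 to 4 and 4 to 6. In macrophages Fgb for RevDKO against Control ranged from -0.29 to 0.21, and for RevScapTKO against Control Hp ranged from -0.13 to 0.30 and Hpx from -0.072 to 0.18. Of 1368 such values of single members 1321 kept their direction and their side of the threshold, 29 lost a call, 8 gained one and 10 changed sign.

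Entered once, the JTK_CYCLE counts in Control, RevDKO and RevScapTKO were 0, 0 and 0 in hepatocytes and 1, 2 and 1 in macrophages, and 1 in ScapKO macrophages. By the 24 h regression they were 0 in each hepatocyte group including ScapKO, and 0, 2, 0 and 0 in macrophages, where no gene passed in Control or ScapKO. No gene passed in RevScapTKO hepatocytes either.

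Counts over all genes also moved. With all transcripts in the fit, hepatocyte counts went from 590 to 1086 (RevDKO against Control), 3498 to 6791 (RevScapTKO against RevDKO) and 4789 to 9197 (RevScapTKO against Control). With the macrophage marker score the last 2 went to 342 and 794, and with the stellate cell score to 361 and 443. In macrophages RevDKO against Control went from 80 to 49 with a pseudocount of 0.1, 45 with no filter and 50 without the albumin-rich libraries, RevScapTKO against RevDKO from 419 to 652 with all transcripts and 988 with the marker score, and RevScapTKO against Control from 524 to 963 and 1821. Changed rhythms in hepatocytes went from 27 to 47 and from 25 to 11 with only the genotypes compared, from 25 to 56 with all transcripts, and from 0 to 4 with no filter, and in macrophages from 0 to at most 1, or, with 1 library left out, to at most 26 (RevDKO against Control, without RevDKO ZT16 replicate 3).

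The replicate numbers were not taken as a pairing: same-numbered libraries deviated together with a mean correlation of 0.04 in hepatocytes and 0.09 in macrophages, and 22.7% and 42.9% of 198 pairs were over 0.1. Libraries with other numbers had mean correlations of -0.02 and -0.04. Per member, the same number was highest in both cell types in 5 (Lcn2 and Hpx) to 9 (Orm1) of 12 groups. Labels do not state whether such libraries share an animal, so differences in the 2 cell types may not be independent. With the replicate block the members called were 4, 5 and 5 in hepatocytes for RevDKO against Control, RevScapTKO against RevDKO and RevScapTKO against Control, and 0, 2 and 4 in macrophages. The added call was Fgb in RevScapTKO against Control (-0.31, limma adjusted p = 0.0445). Over all genes the block moved RevDKO against Control in macrophages from 80 to 167 and RevScapTKO against Control from 524 to 836.

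Quantile normalization leaves the depth of each library unknown, so low values such as Saa3 in macrophages carry an error that could not be stated.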
